A study of Mus musculus with 4 samples.

Results

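RNA of the Mef2 family of transcription factors (Mef2a, Mef2b, Mef2c and Mef2d) and of the class IIa histone deacetylases that bind them (Hdac4, Hdac5, Hdac7 and Hdac9) was followed across the cell types of mouse liver. These 8 genes were chosen by symbol from the 31053 genes listed in the deposited matrices, and each matched 1 row. The study holds 4 single-cell libraries made with 10x Genomics 5′ chemistry, which counts transcripts near their 5′ ends, after enzymatic dissociation of tissue. The groups are premalignant liver labelled Mef2d KO, premalignant liver labelled WT, eHCC (early hepatocellular carcinoma) tissue labelled Mef2d KO and eHCC tissue labelled WT, with 1 library each. The labels give neither the allele, the part of Mef2d that was removed, the cells in which it was removed, the way in which tumours were induced, nor the strain, age or number of animals per library.

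The series' title concerns Mef2d-expressing precursors of liver cancer and the tissue-resident macrophages around them. MEF2 proteins are MADS-box factors that bind an AT-rich element and were first studied in muscle. Class IIa deacetylases have little enzymatic activity of their own: they sit on MEF2, recruit the NCoR/SMRT corepressors with Hdac3, and silence MEF2 targets. Kinases such as the CaMK, PKD and SIK families phosphorylate them, 14-3-3 proteins then hold them in the cytoplasm, and MEF2 is free to recruit acetyltransferases. Mef2c is well known from B cells and muscle, Hdac7 from thymocytes and endothelium, and MEF2D has been studied in human hepatocellular carcinoma.

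Kept barcodes, those with at least 500 UMIs (unique molecular identifiers), at least 300 genes and at most 25% mitochondrial UMIs, numbered 9497 in the KO premalignant, 13712 in the WT premalignant, 8963 in the KO eHCC and 10282 in the WT eHCC library. Their median depth was 4487, 5024.5, 7470 and 8801 UMIs in these libraries. Cell types were taken from marker UMIs, none of which is a gene described here, and 7 gates were used: T, NK, B, liver sinusoidal endothelial, Kupffer, other macrophages and barcodes rich in hepatocyte RNA. They held 64.6%, 76.1%, 49.4% and 57.7% of kept barcodes in the same libraries. For each of these 7 lineages a second list of 6 genes, kept out of the gates, was found in its own gate in every library. The exception was 1 gene at 0 in the hepatocyte gate of the KO eHCC library (3 barcodes). Further gates, such as those of monocytes, neutrophils and plasmacytoid dendritic cells, had no such list. Of 42454 kept barcodes, 364 shared their sequence with a barcode of another library. A level is given in CPM (the gene's share of all UMIs of the gate, scaled to counts per 1e+06 UMIs) where a gate held at least 50 barcodes in a library. With 1 library per group nothing could be tested: intervals are 95% intervals of counting error only, and genotype, stage and library cannot be told apart.

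On mm10 the genes lie apart: Mef2a at chr7:67231163-67372858 (minus strand), Mef2b at chr8:70139711-70167488 (plus), Mef2c at chr13:83504034-83667080 (plus), Mef2d at chr3:88142372-88172086 (plus), Hdac4 at chr1:91928779-92195699 (minus), Hdac5 at chr11:102194432-102230166 (minus), Hdac7 at chr15:97792664-97844502 (minus) and Hdac9 at chr12:34047580-34917095 (minus). The models of Mef2a, Mef2d, Hdac4 and Hdac7 overlap another listed gene on the opposite strand (Lysmd4, 1700113A16Rik, Gm26720 and Slc48a1).

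The promoters of the 8 genes, taken as 250 bases before to 50 after the RefSeq start on GRCm38.p6, were searched for the MEF2 consensus on either strand, which is its own reverse complement. It was found in 2 of 8, Mef2a and Hdac5, against 1047 of 32851 promoters of the same length (3.19%). Among 18 genes reported elsewhere as MEF2 targets, 13 had a promoter in the table and 3 of these held a match (Jun, Klf2 and Mmp10). The 5 matches are shown as 30 bases on the strand of the gene, with the element in capitals, so that the AT-rich core can be compared.
Mef2a, chr7:67372841-67372870, minus strand: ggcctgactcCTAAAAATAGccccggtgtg
Hdac5, chr11:102230173-102230202, minus strand: gggtctgagcCTATTTTTAGctcggggtcg
Jun, chr4:95052236-95052265, minus strand: acatcatgggCTATTTTTAGggattgactg
Klf2, chr8:72318934-72318963, plus strand: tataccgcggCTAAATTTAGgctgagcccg
Mmp10, chr9:7502251-7502280, plus strand: gtcatttggaTTAAAAATAGcacccatgtg
The Mef2a match began 2 bases before the start and ran across it, and the Hdac5 match began 20 bases before the start. The Jun, Klf2 and Mmp10 matches began 33, 118 and 81 bases before it. Hdac5 and Jun carry the same 10 letters, and the Mef2a element is their reverse complement. A match says nothing of binding.

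Mef2a UMIs were found in each gate with at least 50 barcodes; RNA taken up free in a droplet counts too, and its part in low levels was not tested. Mef2a was highest in sinusoidal endothelium, the fenestrated lining of the liver's capillaries, at 369 CPM in the KO premalignant, 316 CPM in the WT premalignant and 335 CPM in the WT eHCC library. The KO eHCC library held 16 endothelial barcodes and is not given. Kupffer cells, the liver's resident macrophages, had 244 CPM in the WT premalignant library, the only one with 50 or more of them (357 barcodes). Other macrophages had 260 CPM in the KO premalignant, 232 CPM in the WT premalignant, 123 CPM in the KO eHCC and 244 CPM in the WT eHCC library. The KO eHCC library was the low one. Levels were lower in NK cells (97.0 to 182 CPM), B cells (57.2 to 99.2 CPM) and T cells (51.8 to 85 CPM), and the ranges of B and T cells overlapped.

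Mef2c RNA was highest in B cells, with 1084 CPM in the KO premalignant, 1052 CPM in the WT premalignant, 823 CPM in the KO eHCC and 832 CPM in the WT eHCC library. Plasmacytoid dendritic cells came next, with 840 CPM in the KO premalignant and 883 CPM in the WT premalignant library, within the B cell range. Sinusoidal endothelium followed at 278 to 346 CPM and other macrophages at 67.9 to 172 CPM. Kupffer cells of the WT premalignant library had 34.1 CPM (28.6 to 40.4), below the other macrophages of the same library at 135 CPM (116 to 157), the reverse order to that of Hdac9 given further on. T cells were low, at 4.0 to 11.4 CPM, with a Mef2c UMI in 1.75% to 5.12% of barcodes, against 92.7% to 95.7% of B cells, although the median depth of T cells (4728 to 6420.5 UMIs) was above that of B cells (3480 to 4929 UMIs). In the KO eHCC library 1 barcode held 32.5% of the 117 Mef2c UMIs of T cells.

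Mef2b, the least known member, was sparse, with 133 UMIs in all kept barcodes. Among gates with at least 50 barcodes, B cells held the most, 31 UMIs at 0.39 to 1.77 CPM. The WT premalignant library held 77 of the 133, and 1 barcode held 15.6% of these. Part of the 77 lay in gates under 50 barcodes, for which no level is given, so B cells need not be its main site. NK cells had 0 UMIs in each library. Its gene model overlaps Borcs8 on the same strand, so even these few UMIs are uncertain.

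Mef2d RNA, from the gene named in the genotype labels, gave UMIs in each gate with at least 50 barcodes, from 13 UMIs upwards. Plasmacytoid dendritic cells had 171 CPM in the KO premalignant and 130 CPM in the WT premalignant library. B cells overlapped them, with 168 CPM in the KO premalignant, 97.3 CPM in the WT premalignant, 123 CPM in the KO eHCC and 105 CPM in the WT eHCC library. T cells ranged from 66.9 to 106 CPM, NK cells from 57.8 to 114 CPM, sinusoidal endothelium from 62.7 to 90.4 CPM and other macrophages from 56.1 to 96.6 CPM, and these 4 ranges overlapped. Kupffer cells of the WT premalignant library had 41.5 CPM (35.4 to 48.4), and hepatocyte-rich barcodes were lower still.

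Among the class IIa deacetylases, Hdac7 RNA was highest in sinusoidal endothelium, at 253 CPM in the KO premalignant, 201 CPM in the WT premalignant and 114 CPM in the WT eHCC library. T cells had 130 CPM in the KO premalignant, 74.9 CPM in the WT premalignant, 45.0 CPM in the KO eHCC and 47.6 CPM in the WT eHCC library. B cells ranged from 20.4 to 89.0 CPM and NK cells from 17.5 to 71.2 CPM, both overlapping T cells. Other macrophages lay below all of these, at 6.70 to 14.4 CPM.

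Hdac9 RNA differed more between lineages. Kupffer cells of the WT premalignant library had 42.0 CPM (35.9 to 49.0), other macrophages of that library 7.80 CPM (3.74 to 14.4). In the remaining libraries the Kupffer gate held 36 barcodes or fewer, with 20 Hdac9 UMIs in the KO premalignant, 9 in the KO eHCC and 13 in the WT eHCC library. B cells had 27.5 CPM in the KO premalignant, 14.6 CPM in the WT premalignant, 9.80 CPM in the KO eHCC and 8.27 CPM in the WT eHCC library, and plasmacytoid dendritic cells 46.0 CPM in the KO premalignant and 22.9 CPM in the WT premalignant library. T cells, with 16 UMIs in the 4 libraries together, had 0.18 to 0.98 CPM, and sinusoidal endothelium 1.42 to 2.27 CPM.

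Hdac4 RNA was highest in neutrophils, at 70.0 CPM in the KO premalignant, 84.6 CPM in the WT premalignant, 78.1 CPM in the KO eHCC and 85 CPM in the WT eHCC library. NK cells, sinusoidal endothelium and T cells shared one range, 14.5 to 41.3 CPM, and B cells had 9.45 to 13.5 CPM. Hdac5 RNA was high in plasmacytoid dendritic cells (87.7 CPM in the KO premalignant and 49.3 CPM in the WT premalignant library), other macrophages (32.0 to 73.2 CPM) and sinusoidal endothelium (28.5 to 49.5 CPM), and low in T cells (10.2 to 19.7 CPM).

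**Figure D1:**
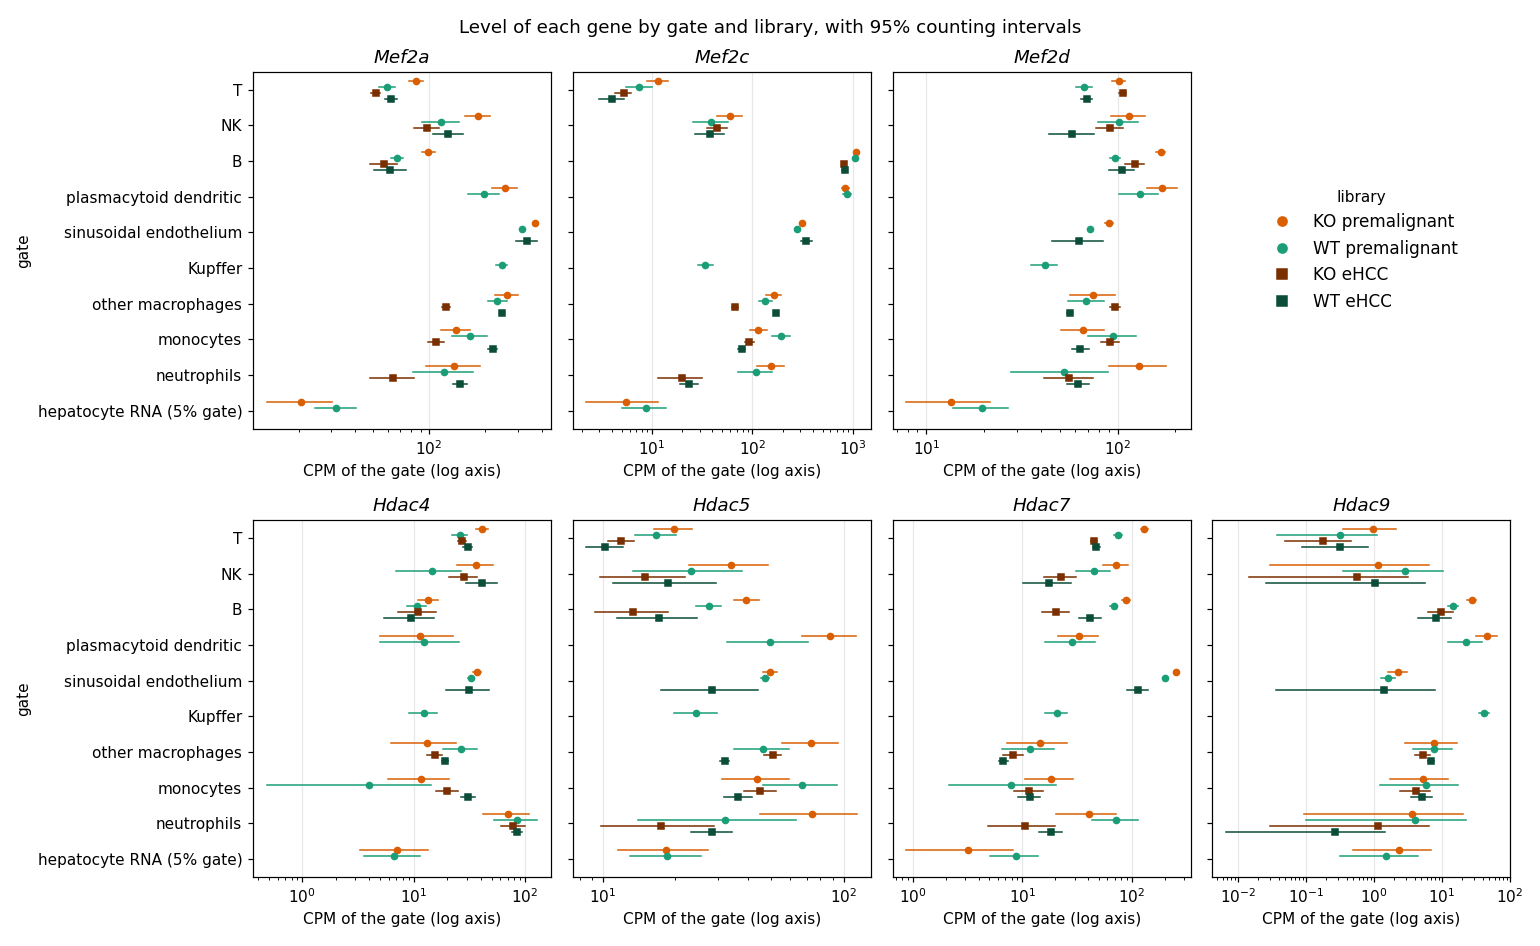
Level of each gene (CPM, log axis) by gate and library, with 95% counting intervals; Mef2b is left out for its few UMIs, and gates with under 50 barcodes in a library are not drawn. Mef2c peaks in B and plasmacytoid dendritic cells, Hdac7 in sinusoidal endothelium, Hdac9 in Kupffer and plasmacytoid dendritic cells and Hdac4 in neutrophils, while Mef2d has UMIs in every gate drawn.

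As shares of the UMIs of each family, Mef2c made up 80.2% to 86.4% of Mef2 UMIs in B cells, against 2.9% to 5.8% in T cells. Mef2d made up 49.7% to 65.0% in T cells, against 8.0% to 12.4% in B cells. Mef2a made up 76.4% in Kupffer cells of the WT premalignant library, against 53.2% in its other macrophages. For the deacetylases, Hdac7 made up 65.0% to 74.0% of class IIa UMIs in sinusoidal endothelium and 53.5% to 67.7% in T cells, against 10.4% to 13.3% in other macrophages, where Hdac5 made up 49.5% to 67.5%. Hdac9 made up 42.4% in Kupffer cells of the WT premalignant library, and Hdac4 37.3% to 72.8% in neutrophils. Shares compare a gene between gates: capture may differ between genes, so they do not rank the genes of 1 gate by abundance.

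**Figure D2:**
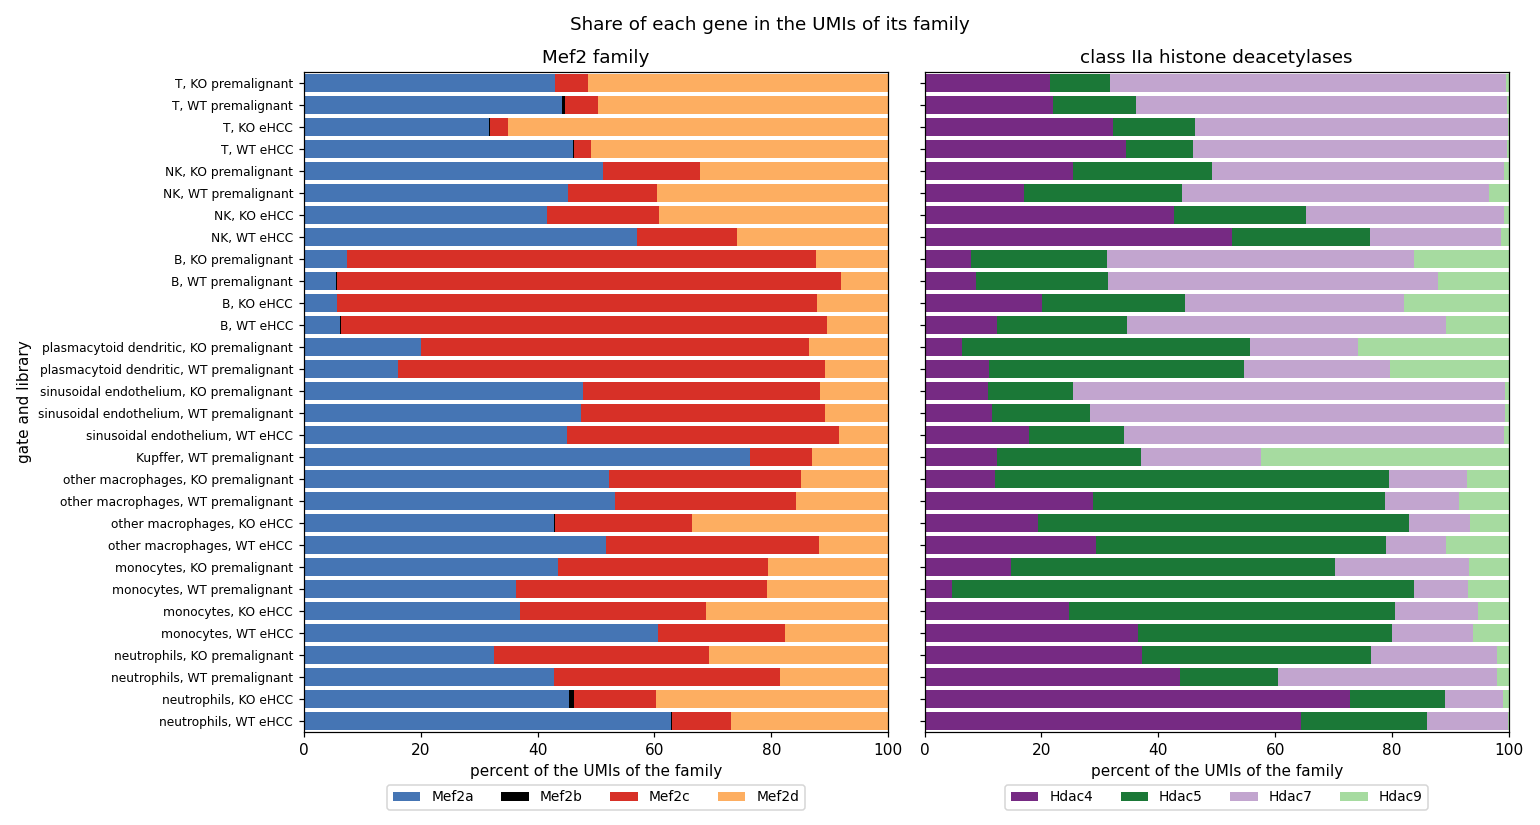
Percent of the UMIs of each family held by each gene, for every gate and library with at least 50 barcodes (left, Mef2 family; right, class IIa deacetylases). Red bars (Mef2c) fill most of the B cell rows, and light purple bars (Hdac7) most of the T cell and sinusoidal endothelial rows.

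Mef2d RNA was not lower in the libraries labelled KO. Over all kept barcodes it was at 104 CPM in the library labelled KO and 73.0 CPM in that labelled WT at the premalignant stage, and at 95.8 CPM in the library labelled KO and 61.8 CPM in that labelled WT in eHCC. The log2 ratio of KO over WT was 0.51 (0.46 to 0.56) in premalignant liver and 0.63 (0.59 to 0.68) in eHCC. In premalignant liver 15.5% of all 14943 genes measured were past 1.5-fold higher and 5.94% past 1.5-fold lower in the KO library, and in eHCC 14% and 28.5% were. A gene counts as measured with at least 50 UMIs in both libraries together. The files count UMIs per gene, so a transcript that lacks an exon still counts, and without the place of the deletion these counts do not check the genotype label.

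By lineage, the ratio lay above 0 in most gates. Of the lineages measured at both stages, T cells alone had intervals off 0 at both. In premalignant T cells Mef2d had 102 CPM in the library labelled KO and 66.9 CPM in that labelled WT (log2 ratio 0.60, 0.42 to 0.78), and in eHCC T cells 106 CPM in the KO library, against 69.1 CPM in the WT library (0.62, 0.51 to 0.73). T cells with Cd4 UMIs had ratios of 0.96 (0.55 to 1.38) in premalignant liver and 0.97 (0.68 to 1.27) in eHCC. T cells with Cd8a or Cd8b1 UMIs had 0.43 (0.18 to 0.68) in premalignant liver and 0.44 (0.30 to 0.59) in eHCC. So the ratio of the CD4 subset was above that of the CD8 subset at both stages. The counting intervals of the subsets overlapped in premalignant liver and did not in eHCC. The T gate limits NK and monocyte markers such as Ly6c2, which cut the CD8 subset more. In eHCC it held 1472 KO and 1044 WT CD8 barcodes, against 3304 KO and 2209 WT without that limit. For CD4 these numbers were 841 KO and 293 WT, against 950 KO and 327 WT. The part of this limit in the order of the subsets was not tested.

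In premalignant B cells the Mef2d ratio was 0.79 (0.66 to 0.91), and in eHCC B cells, with 123 CPM in the KO library, against 105 CPM in the WT library, 0.22 (-0.05 to 0.50). Premalignant macrophages had 74.5 CPM in the KO library, against 68.7 CPM in the WT library (0.12, -0.39 to 0.61), from 57 and 88 UMIs. That value was 0.80 with a stricter limit on markers of other cell types and -0.31 at its lowest under other settings. So no order of the stages can be given. Macrophages of eHCC had 96.6 CPM in the KO library, against 56.1 CPM in the WT library (0.78, 0.68 to 0.88). Sinusoidal endothelium, given for premalignant liver only, had 0.33 (0.24 to 0.41). NK cells had 0.17 (-0.29 to 0.63) in premalignant liver and 0.66 (0.21 to 1.13) in eHCC. The premalignant NK value became 0.69 when barcodes were thinned to 1000 UMIs, and the eHCC value 0.13 with the same stricter limit. Beside the eHCC value, 6 NK genes kept out of the gate summed to 7736 CPM in the KO gate, against 2625 CPM in the WT NK gate; their part in the result was not tested.

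Hepatocytes were scarce. At a share of at least 10% of UMIs from 10 hepatocyte genes, 19 barcodes in the KO premalignant and 55 in the WT premalignant library passed, with 5 and 19 Mef2d UMIs. With a share of 5%, chosen after the data were seen, 272 barcodes in the KO premalignant and 432 in the WT premalignant library passed. Mef2d was then at 13.5 CPM in the KO library (17 UMIs) and 19.5 CPM in the WT library (38 UMIs), a log2 ratio of -0.53 (-1.45 to 0.33). This ratio turned to 0.39 without the 8% of barcodes with the most UMIs and to 0.44 after thinning, so no direction can be given for hepatocyte RNA. The eHCC libraries gave 7 and 39 barcodes at 5% (KO and WT), too few for a level.

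**Figure D3:**
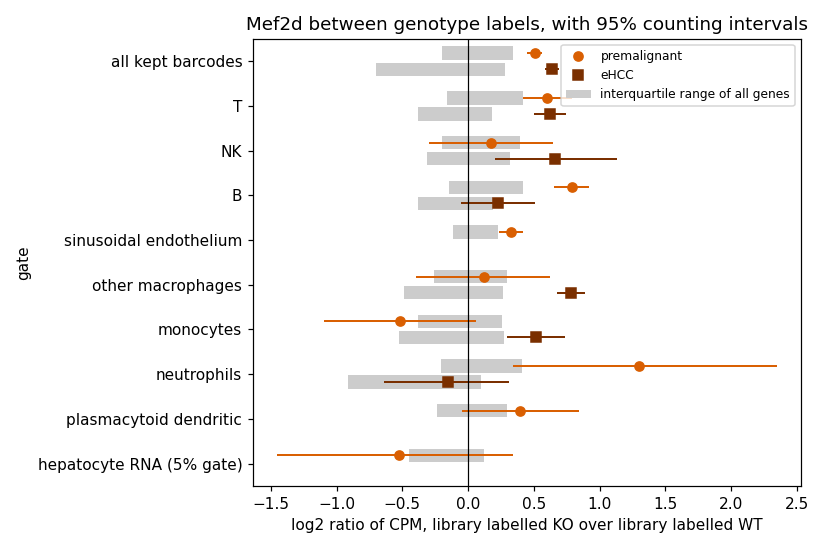
Mef2d log2 ratio of the library labelled KO over that labelled WT (x axis) by gate and stage, with 95% counting intervals; grey bars span the interquartile range of all genes measured in the same comparison. Most points lie right of 0; hepatocyte RNA, premalignant monocytes and eHCC neutrophils lie left of 0, with intervals that include 0.

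The other genes were set against WT in the same way. In premalignant T cells 4 of 6 measured members (Mef2c, Mef2d, Hdac4 and Hdac7) were past 1.5-fold higher in the library labelled KO, where 13.4% of all genes were (3.98% lower). Hdac7 had 130 CPM in the KO library, against 74.9 CPM in the WT library (0.80, 0.63 to 0.96), Hdac4 41.3 CPM in the KO library, against 25.9 CPM in the WT library (0.67, 0.39 to 0.97). With a T gate that tolerates Ly6c2 and NK receptor UMIs, added after the data were seen, 1 of 6 was past the fold (Hdac7; 11.2% of all genes were higher and 3.81% lower), and with libraries scaled by the median ratio of genes 1 of 6 as well. In premalignant NK cells 3 of 4 measured members were higher (Mef2a, Mef2c and Hdac7; 14.5% of all genes were higher and 4.64% lower), of which Mef2a had the narrowest interval (0.65, 0.25 to 1.06) and that of Mef2c included 0. Scaled by the median ratio, 0 of 4 were past the fold in NK cells, with Hdac7 at 0.58, Mef2a at 0.57 and Mef2c at 0.52. In premalignant B cells 2 of 7 were (13.6% of all genes were higher and 4.02% lower): Mef2d, and Hdac9 with a ratio of 0.91 (0.59 to 1.23). Mef2c, whose RNA was higher in B cells than in the other gates, was level there at 0.04 (-0.00 to 0.09).

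In premalignant sinusoidal endothelium 0 of 7 measured members were past 1.5-fold (6.46% of all genes were higher and 2.56% lower). Their ratios ran from 0.07 for Hdac5 to 0.48 for Hdac9 (-0.09 to 1.04), with Hdac7 at 0.33 (0.28 to 0.38) and Mef2a at 0.22 (0.18 to 0.26). In premalignant macrophages 1 of 4 was higher (8.84% of all genes were higher and 8.41% lower): Hdac5, with 73.2 CPM in the KO library, against 46.0 CPM in the WT library (0.67, 0.11 to 1.22), which became -0.45 after thinning. Of these macrophages 62 of 87 in the KO library and 74 of 140 in the WT library also met the monocyte gate. The 5 monocyte genes summed to 4102 CPM in the KO library, against 2191 CPM in the WT library, and the 7 macrophage genes to 3213 CPM in the KO library, against 5713 CPM in the WT library, with none at 0; their part was not tested. All 4 to 7 measured members of each of these 5 premalignant gates had ratios above 0. The median of all genes measured also lay above 0, from 0.01 in macrophages to 0.12 in B cells. In macrophages the quartiles of all genes were -0.26 and 0.29, so genes there lay about evenly on both sides of 0. Under other processing settings the lowest values were below 0 for Mef2c in NK (-0.061) and B cells (-0.079). The same held for Hdac4 (-0.017) and Hdac5 (-0.25) in endothelium, and for Mef2c (-0.22), Mef2d (-0.31) and Hdac5 (-0.45) in macrophages. Immediate-early genes, which tissue handling can induce, had medians of 0.38 in T, 0.36 in NK, 0.46 in B cells and 0.49 in macrophages of the KO over the WT library, and of -0.32 in sinusoidal endothelium. Heat shock genes, a list of 12 chaperones, had medians of 0.24 in T, 0.23 in NK, 0.46 in B cells, 0.10 in macrophages and -0.052 in endothelium, and Hsph1 was at 1.08 in T and 1.54 in B cells. The part of both lists in these ratios was not tested.

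The eHCC libraries differed in another way. In macrophages 2 of 7 measured members were past 1.5-fold higher in the library labelled KO, where 12.5% of all genes were, and 2 of 7 were lower, where 21.1% were. Mef2c had 67.9 CPM in the KO library, against 172 CPM in the WT library (-1.34, -1.45 to -1.24) and Mef2a 123 CPM in the KO library, against 244 CPM in the WT library (-0.99, -1.07 to -0.91). Mef2d and Hdac5 were the higher ones, Hdac5 with 50.7 CPM in the KO library, against 32.0 CPM in the WT library (0.66, 0.53 to 0.80). Within 1 gate of 850 KO and 3494 WT barcodes, family members thus lay on opposite sides. Of these barcodes 525 KO and 1934 WT also met the monocyte gate. The 7 macrophage genes of the gate summed to 5867 CPM in the KO library, against 13187 CPM in the WT library, with none at 0, and 5 erythroid genes to 10990 CPM in the KO library, against 1227 CPM in the WT library; their part was not tested. Without barcodes that also met the monocyte gate, Mef2c was at -1.64, Mef2a at -1.23, Mef2d at 0.77 and Hdac5 at 0.28, the last no longer past the fold; thinned, Hdac5 was at 0.42. Monocytes gave -1.01 (-1.17 to -0.85) for Mef2a, but 0.25 (0.05 to 0.45) for Mef2c.

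In eHCC T cells 1 of 6 measured members was past 1.5-fold higher, Mef2d (7.88% of all genes), and 0 of 6 lower (15.6% of all genes). Mef2a was at -0.27 (-0.40 to -0.14), Hdac7 at -0.08 (-0.23 to 0.07); with the added T gate Hdac7 was at -0.43 (-0.53 to -0.34) and in its CD8 subset at -0.62 (-0.73 to -0.50), 42.2 CPM in the KO library, against 64.8 CPM in the WT library. In eHCC NK cells 1 of 5 was higher, again Mef2d (12.5% of all genes were higher and 11.1% lower). In eHCC B cells 0 of 5 were higher (6.59% of all genes) and 1 was lower (14.3% of all genes): Hdac7, with 20.4 CPM in the KO library, against 41.9 CPM in the WT library (-1.04, -1.59 to -0.50), which became -0.33 after thinning and was then under the fold. Mef2c was level in B cells here as well, at -0.02 (-0.11 to 0.08).

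**Figure D4:**
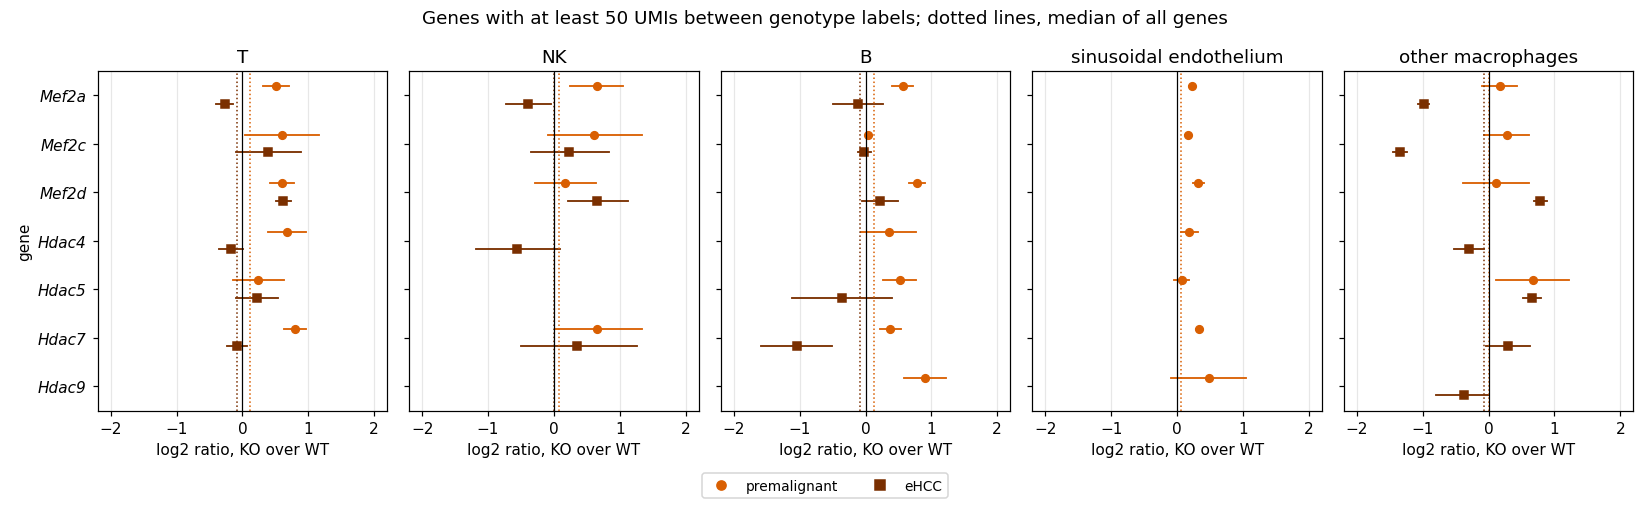
Log2 ratio of the library labelled KO over that labelled WT for each member with at least 50 UMIs, by gate (panels) and stage (circles, premalignant; squares, eHCC), with 95% counting intervals; dotted lines mark the median of all genes. All premalignant points lie right of 0, whereas in eHCC macrophages Mef2a and Mef2c lie near -1 or below and Mef2d and Hdac5 above 0.5.

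The partners of the pathway were read from lists. These held 14 kinases of class IIa deacetylases, 13 activator genes, 7 corepressors, 6 genes of 14-3-3 proteins, 7 other deacetylases and 18 reported targets. The activator genes are MEF2 coactivators, MAP kinases, calcineurin subunits and NFAT factors. In premalignant T cells 6 of 13 measured activator genes were past 1.5-fold higher in the library labelled KO and 0 were lower. Their median ratio was 0.57, against 0.11 for all genes, of which 13.4% were higher and 3.98% lower. Kat2b, an acetyltransferase, had 50.5 CPM in the KO library, against 23.9 CPM in the WT library (1.08, 0.80 to 1.37). Of 13 measured kinases 3 were higher and 1 lower (median 0.44), against the same shares of all genes: Sik1, a salt-inducible kinase that exports class IIa deacetylases, had 71.0 CPM in the KO library, against 36.6 CPM in the WT library (0.96, 0.72 to 1.19), and Camk1 was lower at -0.95 (-1.88 to -0.07) from 17 and 34 UMIs. Reported targets gave 3 higher and 0 lower of 12 (median 0.37), among them Il10, an anti-inflammatory cytokine (1.27, 0.70 to 1.87). The other higher targets, Klf4 and Egr1, are also in the immediate-early list, whose part was not tested. None of the 6 genes of 14-3-3 proteins was past the fold in T, NK, B, endothelial or macrophage gates in premalignant liver.

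Premalignant B cells gave 6 of 13 activator genes higher (median 0.55, against 0.12 for all genes, 13.6% of them higher and 4.02% lower), led by Nfatc3 (0.96, 0.86 to 1.07). Of 12 measured kinases 2 were higher, Sik1 most, with 159 CPM in the KO library, against 64.8 CPM in the WT library (1.29, 1.15 to 1.43). Of 10 measured targets 4 were higher, including Klf4, a growth-restraining zinc finger factor (1.15, 1.04 to 1.26), and Nr4a1, an orphan receptor switched on by MEF2 and calcium in T cells (0.97, 0.88 to 1.06). Klf4, Nr4a1 and Klf6, another of the higher targets, are also in the immediate-early list. The part of that list in the targets' ratios was not tested. In sinusoidal endothelium 1 of 13 activator genes, 3 of 14 kinases and 2 of 12 targets were higher, where 6.46% of all genes were higher and 2.56% lower. Egr1, an immediate-early target, was lower there with 146 CPM in the KO library, against 251 CPM in the WT library (-0.78, -0.84 to -0.72). In premalignant macrophages Sik1 was at 1.01 (0.58 to 1.44), Hdac3, the catalytic partner of the class IIa enzymes, at -1.29 (-2.45 to -0.27) from 10 and 41 UMIs, and Cd274, which encodes PD-L1, at -1.46 (-2.61 to -0.45) from 10 and 46 UMIs.

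Reported targets were read in eHCC in the same way. In T cells 6 of 12 were past 1.5-fold lower and 2 higher (median -0.19, against -0.08 for all genes, 15.6% of them lower and 7.88% higher). In B cells 5 of 9 were lower and 1 higher (median -0.59, against -0.09, with 14.3% of all genes lower and 6.59% higher). In macrophages 4 of 11 were lower and 2 higher (median -0.02, against -0.08, with 21.1% of all genes lower and 12.5% higher). Jun, also in the immediate-early list, had 135 CPM in the KO library, against 517 CPM in the WT library in T cells (-1.93, -2.0 to -1.87) and 224 CPM in the KO library, against 1103 CPM in the WT library in macrophages (-2.30, -2.36 to -2.24). Fos, an immediate-early gene outside the target list, was at -2.54 in T cells and -1.62 in macrophages. Il2, the T cell growth factor, was at -1.84 (-2.13 to -1.56) in T cells. Nr4a1 was higher in B cells (0.76, 0.62 to 0.90), and Cd274 in macrophages, with 115 CPM in the KO library, against 20.5 CPM in the WT library (2.49, 2.38 to 2.60). Of the 18 targets 6 are also in the immediate-early list, whose medians were -0.92 in T, -1.0 in NK, -0.43 in B cells and -0.93 in macrophages. Heat shock genes had medians of 0.0084 in T, 0.017 in NK, 0.095 in B cells and 0.12 in macrophages, with Hspa1a at -1.68 and Hspa1b at -1.90 in T cells. The part of both lists in the targets' ratios was not tested. Kinases in eHCC T cells gave 0 higher and 4 lower of 13 (median -0.32), where 7.88% of all genes were higher and 15.6% lower. Among the lower ones was Prkd3 (-1.04, -1.27 to -0.82), a protein kinase D. With the added T gate Prkd3 was at -0.67 (-0.80 to -0.53).

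Between the stages, Hdac7 was lower in eHCC than in premalignant liver in each lymphoid gate that could be measured. In T cells of the libraries labelled KO it had 45.0 CPM in eHCC and 130 CPM in premalignant liver (log2 ratio of eHCC over premalignant -1.53, -1.67 to -1.40), and in those labelled WT 47.6 CPM in eHCC and 74.9 CPM in premalignant liver (-0.66, -0.83 to -0.48). In B cells the ratio was -2.13 (-2.56 to -1.72) with the KO label and -0.71 (-1.08 to -0.35) with the WT label, and in NK cells with the KO label -1.67 (-2.29 to -1.07). Sinusoidal endothelium labelled WT had 114 CPM in eHCC (50 barcodes) and 201 CPM in premalignant liver (-0.82, -1.15 to -0.50). In these gates 6 endothelial genes kept out of the gate summed to 7103 CPM in eHCC and 11355 CPM in premalignant liver, with none at 0; their part was not tested. Across all genes of cells labelled KO, 34.2% in T, 45.9% in B and 33.5% in NK cells were past 1.5-fold lower in eHCC, and 8.87%, 3.13% and 7.17% higher. With the WT label 12.3% in T, 21.5% in B and 18.7% in endothelial gates were lower, and 7.81%, 4.25% and 16.9% higher. The median ratio of all genes was -0.31 in T and -0.52 in B cells labelled KO. Erythroid genes summed to 17987 CPM in KO eHCC and 44 CPM in KO premalignant T cells, and to 38139 CPM in KO eHCC and 532 CPM in KO premalignant B cells. Scaled without mitochondrial and free RNA genes, the Hdac7 ratios with the KO label were -1.51 in T and -2.05 in B cells; scaled by the median ratio of genes they were -1.22 in T and -1.60 in B cells labelled KO.

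Of 6 measured members in T cells labelled KO 5 were past 1.5-fold lower, where 34.2% of all genes were, and Mef2d was level at 0.06 (-0.06 to 0.19). Scaled by the median ratio of genes, 2 of these 6 were lower (Mef2c and Hdac7), with Mef2a at -0.40, Hdac5 at -0.41 and Hdac4 at -0.30. With the WT label 3 of 6 were lower (Mef2c, Hdac5 and Hdac7), where 12.3% of all genes were, and Mef2d was at 0.05 (-0.12 to 0.22). The added T gate left 1 of these, Mef2c, past the fold.

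In B cells 4 of 7 members were lower with the KO label, where 45.9% of all genes were, and 3 of 7 with the WT label, where 21.5% were. Hdac5 (-1.56, -2.12 to -1.05 with KO and -0.68, -1.29 to -0.13 with WT) and Hdac9 (-1.49, -2.15 to -0.88 with KO and -0.82, -1.73 to -0.03 with WT) were among them. Scaled by the median ratio, 3 of 7 were lower with the KO label, with Mef2a under the fold at -0.27. With the WT label 1 of 7 was then lower, with Hdac7 at -0.49 and Hdac5 at -0.46. In NK cells 3 of 6 were lower with the KO label, where 33.5% of all genes were, and 2 to 6 of 6 under the alternatives. With the WT label 1 of 4 was lower, Mef2d (-0.82, -1.35 to -0.29; 21.4% of all genes were lower), and 1 was higher, Hdac4 (1.51, 0.48 to 2.67; 5.94% of all genes were higher). Mef2d was at -0.39 with a stricter limit on markers of other cell types. Beside both values, 6 NK genes kept out of the gate summed to 2625 CPM in eHCC and 8569 CPM in premalignant NK cells labelled WT; their part was not tested.

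In macrophages Mef2a and Mef2c parted by label, whereas Hdac5 was at -0.53 with the KO label and -0.52 with the WT label. With the KO label 3 of 7 members were lower in eHCC (24.6% of all genes were lower and 13.7% higher): Mef2c at -1.27 (-1.54 to -0.98), Mef2a at -1.08 (-1.29 to -0.85) and Hdac7 at -0.80 (-1.70 to 0.25). With the WT label 1 of 7 was lower (26.5% of all genes were lower and 13% higher), Hdac7 at -0.80 (-1.54 to 0.05), while Mef2a was at 0.08 (-0.09 to 0.25) and Mef2c at 0.35 (0.14 to 0.58). With the KO label the 5 erythroid genes summed to 10990 CPM in eHCC and 24.8 CPM in premalignant macrophages (1 of 5 at 0 there), the monocyte genes to 2917 CPM in eHCC and 4102 CPM in premalignant ones, and the macrophage genes to 5867 CPM in eHCC and 3213 CPM in premalignant ones. With the WT label these sums were 1227 CPM in eHCC and 106 CPM in premalignant macrophages for erythroid, 4053 CPM in eHCC and 2191 CPM in premalignant ones for monocyte, and 13187 CPM in eHCC and 5713 CPM in premalignant ones for macrophage genes. The part of these lists in the ratios was not tested. Without the 8% of barcodes with the most UMIs, Hdac7 with the KO label was at -0.42 and under the fold. Thinned to 1000 UMIs per barcode, the WT value of Mef2c turned to -0.29. Without barcodes that also met the monocyte gate, the WT value of Mef2a was -0.38 and that of Mef2d -1.0, against -0.29 (-0.60 to 0.03) with them. The KO values could not be recomputed in this way, since 62 of the 87 KO premalignant macrophages met the monocyte gate.

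**Figure D5:**
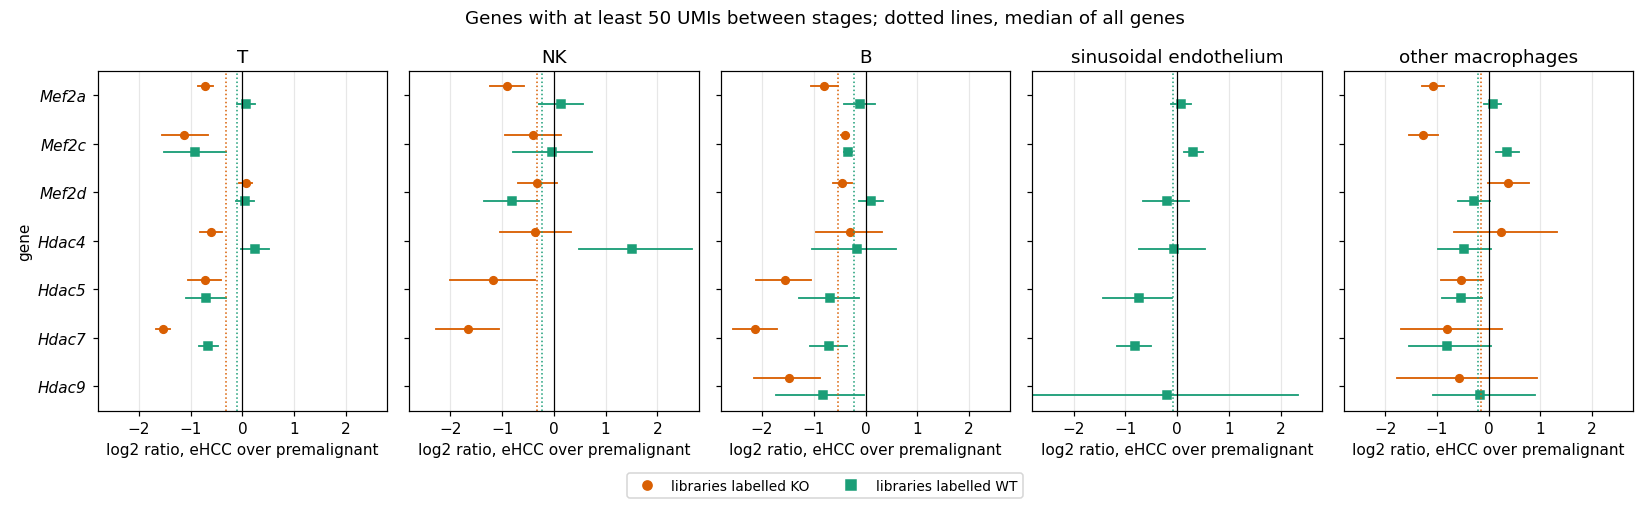
Log2 ratio of eHCC over premalignant liver for each member with at least 50 UMIs, by gate (panels) and genotype label (circles, KO; squares, WT), with 95% counting intervals; dotted lines mark the median of all genes, and KO endothelium is absent for want of barcodes. Hdac5 and Hdac7 lie left of 0 in each panel, and Mef2a and Mef2c of macrophages lie left of 0 with the KO label alone.

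Across 32 combinations of gate and library with at least 50 barcodes, in 11 gates, the genes with the pattern most like each member were named from 12529 genes by Pearson's r of log2(CPM + 5). These points share libraries and depth, and r is a description. Hdac7 was most like Prkd2 (r = 0.92), which encodes a protein kinase D, then Ino80d and Rufy2. Mef2a was most like Ripk1, Man1c1 and Nptn (0.90, 0.90 and 0.89), Mef2c like Snx30, Fam43a and Snx29 (0.87, 0.87 and 0.85), and Mef2d like Dyrk1a, Hnrnpc and Sf1 (0.88, 0.87 and 0.86). Hdac9 was most like Cd180, a surface receptor of B cells and macrophages (0.88), Hdac5 like Epn1 (0.84), Hdac4 like Rab27a (0.84) and the sparse Mef2b like Bend5 (0.84). Among the 8 genes themselves the closest pairs were Mef2a with Hdac5 (0.73) and Mef2c with Hdac9 (0.66), and the farthest Hdac4 with Hdac9 (-0.46).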

How the data were processed

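The authors deposited whole-number UMI counts, one matrix a library, without normalization; Cell Ranger 3.0.1 is the software per the file headers, and the submitters' processing notes name bcl2fastq 2.20.0 and the builds GRCh38 and mm10 without their roles. Gene identifiers are mouse. UMI totals were 56458438 in KO and 96593761 in WT premalignant liver, and 93920711 in KO and 118594527 in WT eHCC.

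Barcodes were gated by at least 3 UMIs from 2 marker genes (macrophages 4 from 3) with markers of other lineages at most 25% of the own; barcodes meeting both macrophage and monocyte gates counted as macrophages, and the hepatocyte gate took barcodes in no other gate. Independent markers of each lineage were checked and found in its gate. No doublet caller was run: barcodes with markers of several lineages entered no gate. UMIs were summed per gate and library and divided by all UMIs of the gate (CPM). Intervals are exact Poisson for CPM, Clopper-Pearson for shares and conditional binomial for log2 ratios, and cover counting error only. Listed partners were named by rule: at most 3 genes with the highest and 3 with the lowest ratio per list, past 1.5-fold with 50 UMIs. Members and lists were chosen with earlier results of these data known. Python 3.11.15, numpy 2.4.6, scipy 1.17.1 and pandas 2.3.3 were used. Ratio intervals were run on simulated Poisson counts, the model they assume. That run checks the computation only and leaves out the spread between barcodes and between libraries.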

Additional observations from a re-analysis of the deposited data

Results flagged for a closer look

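Members whose KO over WT log2 ratio had opposite signs at the 2 stages, with both counting intervals off 0, are listed here; the difference between stages was not tested, since each group is 1 library. Mef2a was at -0.27 in eHCC and 0.51 in premalignant T cells, and at -0.39 in eHCC and 0.65 in premalignant NK cells. Hdac7 was at -1.04 in eHCC (-0.33 after thinning) and 0.38 in premalignant B cells. Over all kept barcodes, Mef2c was at -0.72 in eHCC and 0.08 in premalignant liver, Hdac4 at -0.17 in eHCC and 0.22 in premalignant liver, Hdac5 at -0.31 in eHCC and 0.09 in premalignant liver, and Hdac9 at -1.21 in eHCC and 0.31 in premalignant liver. The medians of all genes there were -0.13 in eHCC and 0.05 in premalignant liver. Thinned to 1000 UMIs per barcode, the premalignant values of Mef2c and Hdac5 were -0.10 and -0.039, the same sign as in eHCC. The cell makeup of the libraries differed: the macrophage gate held 850 KO and 3494 WT barcodes in eHCC and 87 KO and 140 WT barcodes in premalignant liver. Between stages, Mef2c of macrophages was at -1.27 with the KO label and 0.35 with the WT label (-0.29 after thinning), also not tested.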

How the results depend on the processing

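No paired analysis was possible because each group is 1 library without a replicate number. Each member's ratio was recomputed under each alternative; the sign turned in 42 of 807 KO over WT values and 34 of 796 eHCC over premalignant values, main values with an interval that includes 0 among them. The gates that ignore overlapping lists, macrophages without the monocyte gate, the 5% hepatocyte gate and the alternatives for the stage comparison were chosen after seeing the data. The cause was not tested for any change below.

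KO over WT values of eHCC turned in sign too, among them Hdac5 of B cells (-0.36, to 1.04) and Hdac7 of T cells (-0.08, to 0.046). In premalignant liver signs turned for the values below and for those given above with lowest values below 0. Over all kept barcodes Mef2a (-0.08) became 0.023 without the top 8% of barcodes by UMIs, 0.10 thinned to 1000 UMIs and 0.041 with equal weight per barcode; Mef2c (0.08) became -0.10 thinned and -0.12 with equal weight; Hdac5 (0.09) became -0.039 thinned. Thinning also turned Hdac4 of sinusoidal endothelium (0.18) to -0.017 and Hdac5 of macrophages (0.67) to -0.45. For eHCC over premalignant, thinning turned Mef2c of WT macrophages (0.35) to -0.29. Median ratio scaling turned Mef2c to 0.13 and Mef2d to 0.070 in KO B cells, and over all kept barcodes Mef2d to 0.49 and Hdac4 to 0.19 with KO and Mef2a to 0.14, Mef2d to 0.19 and Hdac9 to 0.045 with WT.

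Mef2d KO over WT moved beyond its interval to 0.80 in premalignant macrophages and 0.13 in eHCC NK cells (other lists at most 10%). The macrophage value kept its sign in 9 of 11 settings and was -0.31 at its lowest. Mef2d also moved to 0.69 in premalignant NK cells (thinned). Over all eHCC barcodes it moved to 0.69 (without the top 8%), 0.55 (thinned), 0.59 (equal weight) and 0.76 (median ratio). The 5% hepatocyte value (-0.53) turned to 0.39 (without the top 8%) and 0.44 (thinned). Hdac7 eHCC over premalignant moved to -2.50 in KO NK, -1.56 in KO B and -0.85 in WT T cells (thinned), to -1.21 in WT endothelium (equal weight), to -1.22 in KO T and -1.60 in KO B cells (median ratio), and over all barcodes to -2.38, -2.10, -2.11 and -2.02 with WT (without the top 8%, thinned, equal weight, median ratio) and -2.21 and -1.68 with KO (equal weight, median ratio).

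At a limit of 2-fold in place of 1.5-fold, the genes past it numbered 264 of 1679 in premalignant T, 189 of 873 in NK, 318 of 1738 in B, 396 of 1154 in endothelial and 211 of 876 in macrophage gates, and in eHCC to 1074 of 2512 in T, 442 of 1270 in NK, 403 of 1298 in B and 2123 of 3985 in macrophage gates. With a minimum of 20 UMIs the counts that moved over 1.5 times were 1953 in premalignant NK, 1772 in endothelium, 1872 in macrophages, and 2351 in NK and 2354 in B cells of eHCC. Depth limits Mef2b, Kupffer cells outside the WT premalignant library, endothelium of KO eHCC and hepatocyte RNA.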

Other observations

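Smaller gates gave values outside the comparisons above. Premalignant neutrophils had 129 CPM of Mef2d in the library labelled KO (35 UMIs, 62 barcodes) and 52.4 CPM in that labelled WT (13 UMIs, 58 barcodes), a log2 ratio of 1.3 (0.34 to 2.34), whereas eHCC neutrophils had 56.0 CPM in the KO library, against 62.2 CPM in the WT library (-0.15, -0.63 to 0.30). Mef2c of neutrophils was at 19.8 CPM in the KO eHCC and 155 CPM in the KO premalignant library (-2.96, -3.87 to -2.12), and at 23.6 CPM in the WT eHCC and 109 CPM in the WT premalignant library (-2.21, -2.84 to -1.53). Mef2a of eHCC neutrophils was at 64.1 CPM in the KO library, against 146 CPM in the WT library (-1.19, -1.61 to -0.78), where the median of all 6484 genes measured was -0.41 and 40.2% of them were past 1.5-fold lower.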
